A study of Mus musculus with 6 samples.

Results

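A set of 30 genes that mark the blood vessel wall and the meninges was followed in cerebral cortex RNA-seq libraries of 6 female ICR mice, an outbred wild-type stock, at 6 weeks of age. Genes were chosen by symbol from the 33274 rows of the deposited counts, all 30 had a row of their own, and all 30 were among the 18327 genes tested. They comprised 15 genes of endothelial cells, 5 of pericytes, 3 of arterial smooth muscle and 7 of meningeal and perivascular fibroblasts. The mice were grandoffspring (F2) of ICR males that had received either methylphenidate (15 mg/kg), a stimulant that slows the reuptake of dopamine and noradrenaline, or saline (10 mL/kg) under the skin on 21 consecutive days from the age of 6 weeks. These males sired F1 litters with untreated females, and 1 F1 son per litter sired the F2 with an untreated female, so the animals measured had no dose themselves. Each lineage, called saline and methylphenidate here, had 3 libraries. The labels do not say which mice shared a sire or litter, so the p-values rest on the spread between these libraries alone, which may be partly technical. The dosed animals were the grandsires, and if libraries of a lineage share one, this spread leaves out variation between grandsires. The comparison asked whether vessel and meningeal transcripts in the cortex depended on what the grandsire had received.

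Brain capillaries are tubes of endothelial cells sealed by tight junctions and equipped with transporters, and this lining is the blood-brain barrier. Pericytes wrap the capillaries within a shared basement membrane, smooth muscle cells ring the arteries and arterioles, and fibroblasts that make fibrillar collagen lie in the meninges and around larger penetrating vessels. Because the meninges are stripped to a varying degree when cortex is dissected, genes of these fibroblasts are also known as markers of how much membrane was left on a sample.

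Total counts per library lay between 23896752 and 28120640, and the 30 genes held 0.0816 to 0.0894% of them, with 40 to 3229 counts per gene and library. Levels are given in CPM, the count of a gene per 1e6 counts after TMM scaling, a correction for differences in library composition. Endothelial genes held 64.9% of the counts of the 30, pericyte genes 24.3%, fibroblast genes 9.20% and smooth muscle genes 1.65%. All 4 groups were thus detected in every library, with the fewest counts in the smooth muscle and fibroblast genes. Cortical excitatory neuron markers, 8 of 8 detected in every library, summed to 6285 to 6676 CPM. By gene, 6 of the 8 were lower in the methylphenidate lineage. In 3 of them all methylphenidate libraries lay below all saline libraries, against 6.51% of all genes tested. Markers of striatal projection neurons, 12 of 12 detected, summed to 259 to 359 CPM in the saline and 356 to 847 CPM in the methylphenidate libraries. All 12 were higher in the methylphenidate lineage, and in 6 the lineages did not overlap, against 6.97% of all genes tested. An edgeR unadjusted p under 0.05 was found for 10 of these 12, against 4.2% of all genes. None of the 8 or the 12 passed the threshold given below. The part of both marker sets in the results below was not tested.

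Per kilobase of exon, a scale on which genes can be compared, the transmembrane protein gene Itm2a had the highest level of the 30, at 36.8 CPM per kilobase over the 6 libraries. Vtn, which encodes vitronectin and is made by brain pericytes, followed at 33.5, Slc2a1, the glucose transporter GLUT1, at 27.7, and the tight junction gene Cldn5 at 24.2. The median was 6.75 for endothelial, 5.40 for pericyte, 1.61 for smooth muscle and 1.83 for fibroblast genes, and Myh11, the smooth muscle myosin heavy chain, had the lowest level at 0.698. On this scale the fibroblast genes lay between 0.881 and 3.12, below the median of the endothelial genes. Exon lengths came from an annotation of another genome build than that of the counts.

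**Figure D1:**
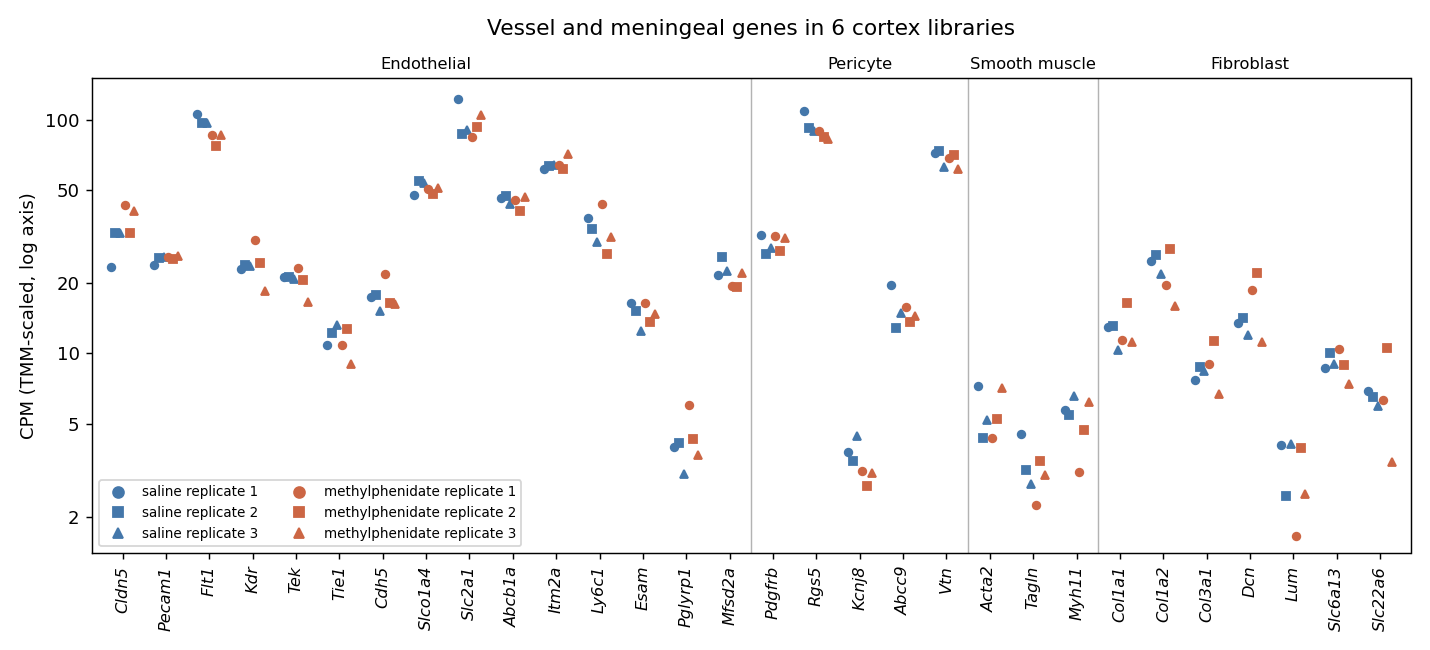
Level of each of the 30 genes in each library, in CPM on a log axis, with genes grouped by cell type along the horizontal axis and 1 symbol per library (blue saline, orange methylphenidate). The lineages overlap in all genes but Cldn5, Flt1, Rgs5 and Kcnj8, and Slc22a6 reaches from 3.42 to 10.5 CPM within the methylphenidate lineage.

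None of the 30 genes passed the threshold between the lineages (edgeR quasi-likelihood test, Benjamini-Hochberg adjustment over all genes tested, threshold 0.05; smallest edgeR adjusted p = 0.389), where 5 of all 18327 genes did, or 0.0273%. None passed with DESeq2, which called 0.824% of genes, or with limma-voom, which called 0.0273%. At an unadjusted p under 0.05 there were 2 members, where 7.51% of all genes lay under that value: Cldn5, higher in the methylphenidate lineage as were 4.2% of all genes, and Flt1, lower as were 3.31%. The lineages did not overlap in 4 members, 1 higher and 3 lower, against 13.5% of all genes tested, a share close to that of the members. The log2 ratio of a gene is its fitted log2 fold change, methylphenidate over saline. Its median was -0.05 over the 30 genes and 0.00082 over all genes tested.

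The fold changes were bounded more tightly for endothelial and pericyte genes than for the fibroblast and smooth muscle genes. The 95% interval of the log2 ratio lay within -0.5 and 0.5 for 12 of 15 endothelial genes, 4 of 5 pericyte genes, 0 of 3 smooth muscle genes and 2 of 7 fibroblast genes, against 52.3% of all genes tested. For Pecam1, which encodes the endothelial adhesion molecule CD31, the interval ran from 0.901-fold to 1.18-fold, and for Itm2a from 0.926-fold to 1.18-fold. For Lum, which encodes the collagen-binding proteoglycan lumican, it ran from 0.447-fold to 1.31-fold.

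**Figure D2:**
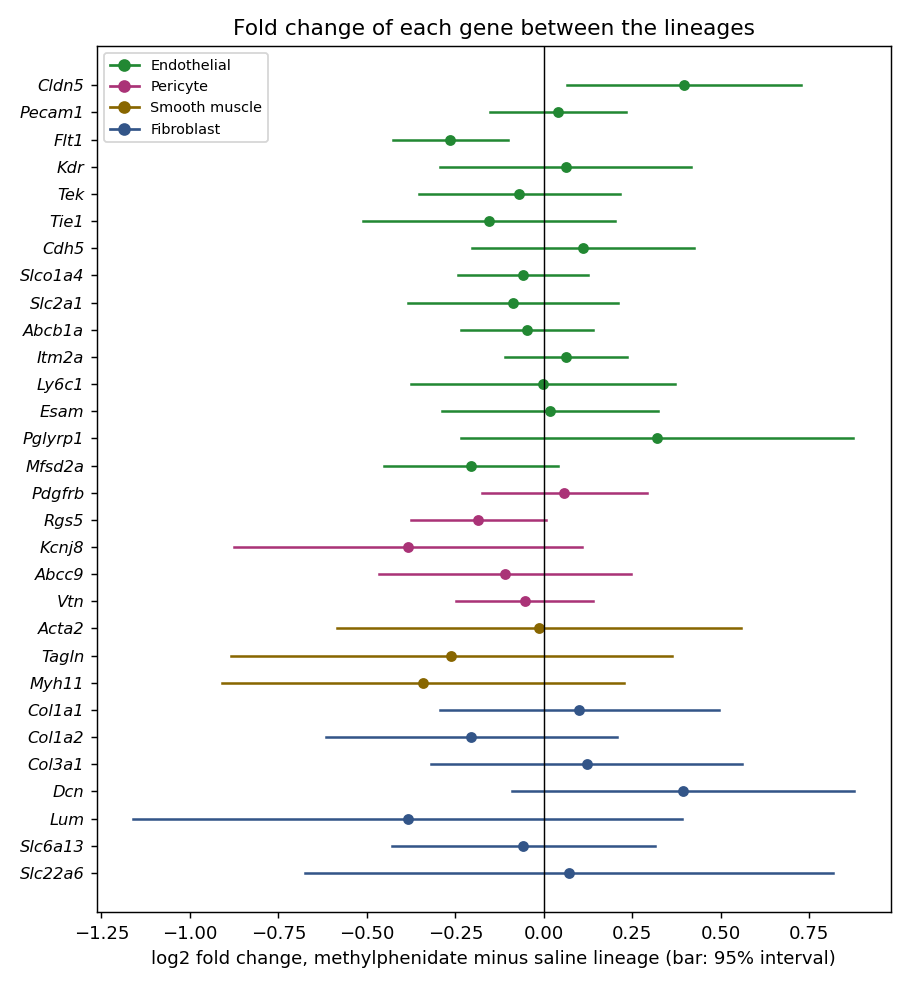
Log2 fold change (log2 ratio) of each of the 30 genes between the lineages, methylphenidate minus saline, on the horizontal axis, with 1 gene per line, points for estimates from the edgeR fit and bars for 95% intervals, coloured by cell type. Only the bars of Cldn5 and Flt1 do not cross 0, before any adjustment for the number of genes tested.

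Among the endothelial receptors, Flt1 (ENSMUSG00000029648) stood at the smallest p of the 30 genes. It encodes VEGF receptor 1, which binds VEGF-A tightly and, in its soluble form, keeps it from the main signalling receptor. Flt1 was at 105.3, 96.6 and 96.3 CPM in the saline libraries, in the order of replicates 1 to 3 used throughout, and at 85.6, 77.1 and 85.7 CPM in the methylphenidate libraries. All 3 methylphenidate libraries lay below all 3 saline libraries, with saline replicate 1 highest and methylphenidate replicate 2 lowest. Its log2 ratio was -0.26 (SE 0.07, 95% interval -0.42 to -0.10; edgeR adjusted p = 0.389). Means were 99.4 ± 5.08 CPM in the saline and 82.8 ± 4.92 CPM with methylphenidate (SD, n = 3 per group). The difference did not pass the threshold over all genes.

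Kdr, which encodes VEGF receptor 2, the main signalling receptor for VEGF-A in endothelium, did not share that order. It was at 22.9, 23.8 and 23.6 CPM in the saline and at 30.6, 24.3 and 18.5 CPM in the methylphenidate libraries. The saline values lay close together, inside a wider spread in the methylphenidate lineage, where replicate 1 was the highest and replicate 3 the lowest of the 6 libraries (log2 ratio 0.06, SE 0.16; edgeR adjusted p = 0.959). Tek, the angiopoietin receptor TIE2, followed the same order in the methylphenidate lineage, at 23.2, 20.5 and 16.5 CPM, with saline values of 21.2, 21.2 and 20.8. Tie1, an orphan relative of TIE2, was at 10.8, 12.2 and 13.2 CPM in the saline and at 10.9, 12.7 and 8.98 CPM in the methylphenidate libraries. Methylphenidate replicate 3 was thus the lowest library for Kdr, Tek and Tie1, while the lineages overlapped in all 3 genes. Their log2 ratios lay between -0.15 and 0.06.

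Of the junction genes, Cldn5 (ENSMUSG00000041378) had the smallest p. It encodes claudin-5, the main tight junction claudin of the blood-brain barrier. Cldn5 was at 23.4, 32.7 and 32.6 CPM in the saline and at 43.3, 32.8 and 40.8 CPM in the methylphenidate libraries. The groups did not overlap, although saline replicate 2 and methylphenidate replicate 2 were nearly level, and saline replicate 1 was well below the others. The log2 ratio was 0.40 (SE 0.15, 95% interval 0.07 to 0.73; edgeR adjusted p = 0.602). Means were 29.6 ± 5.32 and 39.0 ± 5.44 CPM (SD, n = 3 per group). Without saline replicate 1 the log2 ratio of Cldn5 was 0.25. Cdh5, VE-cadherin of the adherens junction, was at 17.5, 17.8 and 15.2 CPM in the saline and 21.9, 16.4 and 16.3 CPM in the methylphenidate libraries, and Pecam1 at 23.8, 25.7 and 25.7 and at 25.8, 25.4 and 26.1 CPM. The lineages overlapped in both genes, and Pecam1 was the steadiest of the 30 genes, with its highest library 1.10 times its lowest. Esam, an endothelial adhesion molecule gene, had a log2 ratio of 0.02 (SE 0.14).

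The promoters of Flt1 and Cldn5 are shown because these are the endothelial genes whose lineages did not overlap, in opposite directions. Each runs from 250 bases before to 50 bases after the start of the gene, 5′ to 3′ on the strand of the gene, from RefSeq. Capitals mark matches to CCAAT or TATAAA on either strand, so that ATTGG is a CCAAT match on the other strand.

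Flt1 (GRCm38.p6, chr5:147725962-147726261, minus strand): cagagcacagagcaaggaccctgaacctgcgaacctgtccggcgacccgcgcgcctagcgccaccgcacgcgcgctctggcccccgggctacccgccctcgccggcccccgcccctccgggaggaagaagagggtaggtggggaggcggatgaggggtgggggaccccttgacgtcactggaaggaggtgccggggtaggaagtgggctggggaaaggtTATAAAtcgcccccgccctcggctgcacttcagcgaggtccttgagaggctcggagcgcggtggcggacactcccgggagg

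Cldn5 (GRCm38.p6, chr16:18776597-18776896, plus strand): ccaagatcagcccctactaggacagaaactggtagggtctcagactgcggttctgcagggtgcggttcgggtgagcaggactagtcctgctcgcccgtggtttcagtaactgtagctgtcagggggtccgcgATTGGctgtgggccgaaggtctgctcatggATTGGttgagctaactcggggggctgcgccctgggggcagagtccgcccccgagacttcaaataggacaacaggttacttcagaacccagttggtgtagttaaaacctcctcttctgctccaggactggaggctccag

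Flt1 held TATAAA with its first base at -31, counted from the start of the gene, and had no CCAAT match in this window. Cldn5 held CCAAT at -118 and -88, both on the other strand, and had no TATAAA match. Over all 32851 promoter windows of the same length in the RefSeq table, 37.4% held CCAAT and 13.6% held TATAAA. The table had windows for 21 of the 30 genes. Of these, CCAAT was found in 9 and TATAAA in 5, the GC box GGGCGG in 9 (35.7% of all windows), and the ETS core CCGGAA in 1, Kdr (14.9% of all windows). A gene was counted if any of its windows matched, while the shares are of single windows. Slc6a13 had 3 windows and Ly6c1 had 2. The CArG box, the site known for the serum response factor, was searched by its 10-base consensus and matched in none of the 21, against 1.63% of all windows. Acta2 was the only smooth muscle gene with a window, so Tagln and Myh11 were not searched. Motifs were searched on both strands and could overlap each other.

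None of the 4 barrier transporters passed the threshold. Mfsd2a, the lysolipid transporter that also keeps transcytosis low in brain capillaries, was at 21.6, 25.9 and 22.4 CPM in the saline and at 19.3, 19.2 and 22.1 CPM in the methylphenidate libraries. Its 2 lowest values were those of methylphenidate replicates 1 and 2, but replicate 3 lay within the saline range (log2 ratio -0.21, SE 0.11; edgeR adjusted p = 0.730). Slc2a1 was at 122.9, 87.1 and 90.3 CPM in the saline and at 84.5, 93.2 and 105.1 CPM in the methylphenidate libraries, so that 1 library of each lineage stood above the rest. The log2 ratio of Slc2a1, -0.09 (SE 0.13), was 0.09 without saline replicate 1. Abcb1a, the drug efflux pump P-glycoprotein, lay between 40.6 and 46.9 CPM and Slco1a4, an organic anion transporter, between 47.6 and 54.8 CPM over the 6 libraries, with log2 ratios of -0.05 (SE 0.08) and -0.06 (SE 0.08).

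The other endothelial markers also overlapped between the lineages. Itm2a had a log2 ratio of 0.06 (SE 0.08). Ly6c1, a surface antigen gene of brain endothelium, had one of -0.0027 (SE 0.17), and reads of its near-identical neighbour Ly6c2 could be shared with it. Pglyrp1, a peptidoglycan recognition protein gene, had the fewest counts of the 15, 74 to 145 per library, and a log2 ratio of 0.32 (SE 0.25). The highest library was methylphenidate replicate 1 in 6 of the 15 endothelial genes, against 15.6% of all genes tested. The mean of the 15 genes, as log2 CPM centred on each gene, lay between -0.07 and 0.12 over the 6 libraries. Group means were -0.0013 ± 0.04 for saline and 0.0013 ± 0.11 for methylphenidate (SD, n = 3 per group). In bulk tissue, fewer cells of a type and less RNA per cell cannot be told apart, so these values describe the endothelial RNA of the sample as a whole.

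Pericyte genes lay lower in the methylphenidate lineage for 4 of 5 members, with a median log2 ratio of -0.11, where 50.3% of all genes tested were above 0 and none of the 5 passed the threshold. Rgs5, a regulator of G protein signalling and the classical marker of brain pericytes, was at 109.3, 92.4 and 89.7 CPM in the saline and at 89.4, 84.3 and 82.8 CPM in the methylphenidate libraries. The groups did not overlap, although saline replicate 3 and methylphenidate replicate 1 were nearly level (log2 ratio -0.19, SE 0.08; edgeR adjusted p = 0.672). Without saline replicate 1 the log2 ratio of Rgs5 was -0.09.

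Kcnj8 and Abcc9 encode the pore and the sulfonylurea receptor subunit of the ATP-sensitive potassium channel of pericytes. Kcnj8 was at 3.77, 3.48 and 4.42 CPM in the saline and at 3.15, 2.70 and 3.09 CPM in the methylphenidate libraries. All 3 methylphenidate libraries lay below the saline libraries, on 75 to 107 counts per library (log2 ratio -0.38, SE 0.22; edgeR adjusted p = 0.750). Its partner Abcc9 did not show the gap, at 19.5, 12.9 and 14.8 CPM in the saline and 15.8, 13.6 and 14.5 CPM in the methylphenidate libraries. Saline replicate 1 was the highest library for Abcc9, and its log2 ratio, -0.11 (SE 0.16), was 0.07 without that library. Pdgfrb, the receptor through which endothelial PDGF-B recruits pericytes, had a log2 ratio of 0.06 (SE 0.10) and Vtn one of -0.05 (SE 0.09), with both lineages overlapping. The mean of the 5 genes was 0.06 ± 0.12 for saline and -0.06 ± 0.07 for methylphenidate (SD, n = 3 per group), and saline replicate 1 was the highest of the 6 libraries at 0.20. With saline replicate 1 left out, the median log2 ratio of the 5 genes was -0.026, and with saline replicate 2 left out it was -0.22.

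Smooth muscle genes were the fewest in counts, 54 to 191 per gene and library, and the lineages overlapped in all 3. Acta2, smooth muscle actin, was at 7.27, 4.34 and 5.21 CPM in the saline and at 4.35, 5.23 and 7.08 CPM in the methylphenidate libraries. Tagln, the actin-binding protein transgelin, was at 4.53, 3.16 and 2.77 CPM and at 2.24, 3.48 and 3.01 CPM. Myh11 was at 5.75, 5.47 and 6.57 CPM and at 3.11, 4.71 and 6.22 CPM. Methylphenidate replicate 1 was the lowest of the 6 libraries for Tagln and Myh11 and nearly level with the lowest for Acta2. The log2 ratios of Acta2, Tagln and Myh11 were -0.01 (SE 0.26), -0.26 (SE 0.28) and -0.34 (SE 0.25), and their edgeR adjusted p 0.995, 0.884 and 0.818. Without saline replicate 1 the values of Acta2 and Tagln were 0.22 and -0.03, and that of Myh11 was -0.12 without methylphenidate replicate 1 and -0.60 without replicate 3. Tagln overlaps exons of Pcsk7 on the other strand in the GENCODE M21 annotation, and no source used here gives the strand setting of the counts, so whether reads of Pcsk7 from the overlapping exons were counted for Tagln is unknown.

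Fibroblast genes did not differ between the lineages past the threshold, but they were spread more widely within the methylphenidate lineage than within the saline lineage. The mean of the 7 genes, as centred log2 CPM, was 0.06, 0.03 and -0.03 for saline, and -0.07, 0.40 and -0.40 for methylphenidate, replicates 1 to 3 each. The saline libraries lay within 0.10 of each other and the methylphenidate libraries within 0.80, with replicate 2 the highest and replicate 3 the lowest of all 6. Group means were 0.02 ± 0.05 and -0.02 ± 0.40 (SD, n = 3 per group), and the difference in spread was not tested. Of the 7 genes, 4 were above 0 and 3 below in log2 ratio, with a median of 0.07, and the smallest edgeR adjusted p was 0.741.

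Col1a1 and Col1a2 encode the chains of type I collagen, and Col3a1 that of type III collagen, the fibrillar collagens of the meninges. Col1a1 was at 12.9, 13.1 and 10.4 CPM in the saline and at 11.4, 16.4 and 11.2 CPM in the methylphenidate libraries. Col1a2 was at 24.9, 26.4 and 21.8 CPM and at 19.5, 28.0 and 15.9 CPM, and Col3a1 at 7.69, 8.75 and 8.44 CPM and at 9.03, 11.3 and 6.71 CPM. Methylphenidate replicate 2 was the highest of the 6 libraries for all 3 collagen genes, and replicate 3 was the lowest for Col1a2 and Col3a1. The log2 ratios between the lineages were 0.10 (SE 0.18), -0.20 (SE 0.18) and 0.12 (SE 0.20). Without methylphenidate replicate 2 they were -0.10, -0.46 and -0.08, and without replicate 3 they were 0.20, -0.04 and 0.29, none of them past the threshold (edgeR adjusted p 0.478 to 0.989).

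Dcn and Lum encode decorin and lumican, small proteoglycans that bind collagen fibrils. Dcn was at 13.5, 14.2 and 12.0 CPM in the saline and at 18.7, 22.2 and 11.2 CPM in the methylphenidate libraries. Methylphenidate replicates 1 and 2 were above every saline library and replicate 3 below them (log2 ratio 0.39, SE 0.22; edgeR adjusted p = 0.741). Without methylphenidate replicate 3 the log2 ratio of Dcn was 0.63 (edgeR adjusted p = 0.543), and without replicate 2 it was 0.18. Lum was at 4.07, 2.46 and 4.09 CPM in the saline and at 1.66, 3.93 and 2.51 CPM in the methylphenidate libraries, on 40 to 112 counts. It was lowest in methylphenidate replicate 1, unlike Dcn, and its log2 ratio was -0.38 (SE 0.35; edgeR adjusted p = 0.862). For Lum it was -0.76 without methylphenidate replicate 2 and -0.13 without replicate 1.

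Slc6a13, the GABA and taurine transporter GAT2, and Slc22a6, the organic anion transporter OAT1, are transporters of meningeal fibroblasts. Slc22a6 was at 6.89, 6.52 and 5.95 CPM in the saline and at 6.34, 10.5 and 3.42 CPM in the methylphenidate libraries. It had 300 counts in methylphenidate replicate 2 and 83 in replicate 3, a difference of 3.04-fold in level and the widest of the 7 genes. Slc6a13 varied less, at 8.68, 10.0 and 9.01 CPM and at 10.4, 8.89 and 7.37 CPM, with methylphenidate replicate 1 highest and replicate 3 lowest. Neither gene differed between the lineages past the threshold (log2 ratios 0.07, SE 0.33, for Slc22a6 and -0.06, SE 0.17, for Slc6a13; edgeR adjusted p 0.978 and 0.964). The log2 ratio of Slc22a6 was -0.41 without methylphenidate replicate 2 and 0.39 without replicate 3.

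The promoters of Col1a2 and Slc22a6 are shown because these genes of unrelated function shared the order of the methylphenidate libraries. The window, strand and capitals are as for Flt1 and Cldn5.

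Col1a2 (GRCm38.p6, chr6:4505368-4505667, plus strand): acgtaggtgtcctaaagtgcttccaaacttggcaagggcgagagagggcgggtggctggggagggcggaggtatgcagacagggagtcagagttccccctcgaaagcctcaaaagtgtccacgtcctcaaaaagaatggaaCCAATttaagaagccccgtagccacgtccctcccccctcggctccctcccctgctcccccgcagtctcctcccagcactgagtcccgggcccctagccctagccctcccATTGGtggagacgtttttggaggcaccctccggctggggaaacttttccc

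Slc22a6 (GRCm38.p6, chr19:8617746-8618045, plus strand): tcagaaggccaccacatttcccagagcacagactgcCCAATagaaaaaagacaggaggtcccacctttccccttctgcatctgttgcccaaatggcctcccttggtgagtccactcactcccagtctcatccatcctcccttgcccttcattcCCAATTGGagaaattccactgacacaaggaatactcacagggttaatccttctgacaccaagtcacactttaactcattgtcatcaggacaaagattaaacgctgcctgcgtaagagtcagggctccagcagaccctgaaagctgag

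Col1a2 held CCAAT at -109 and, on the other strand, at 1. Slc22a6 held it at -214 and -97, with a match on the other strand at -94 that overlaps the match at -97. Neither window held TATAAA. Col3a1, which shared the order too, had TATAAA but no CCAAT match in its window. Windows for Col1a1 and Dcn, which shared the order, and for Lum, which did not, were not among the 21. The part of the promoter matches in that order was not tested.

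**Figure D3:**
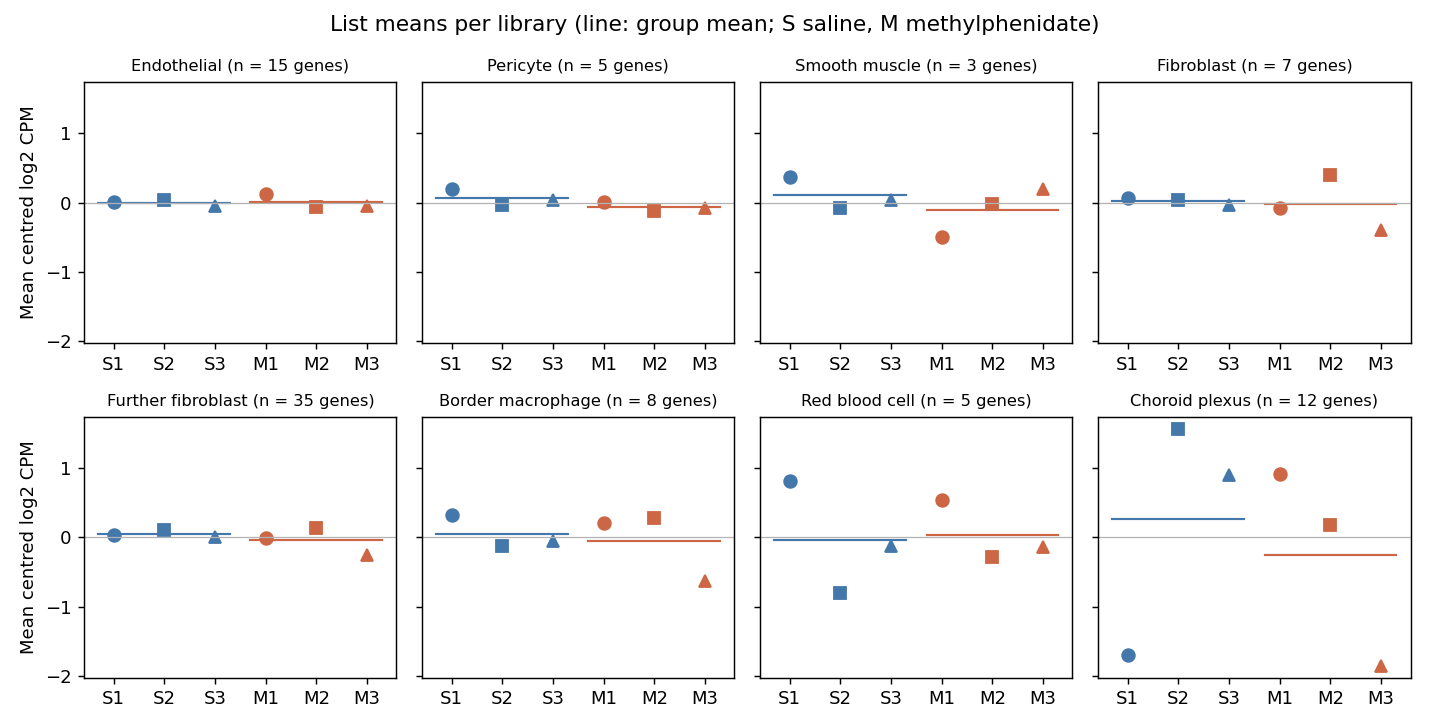
Mean of each gene list in each library, as log2 CPM centred on each gene, on the vertical axis, with the 6 libraries along the horizontal axis and lines for group means over 3 libraries. Endothelial means stay between -0.07 and 0.12, fibroblast means reach 0.40 in methylphenidate replicate 2 and -0.40 in replicate 3, and choroid plexus means span a far wider range in a different order of libraries.

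The contrast between methylphenidate replicates 2 and 3 was chosen after the values were seen, compares 1 library with another and was given no test. All 7 fibroblast genes were higher in replicate 2 than in replicate 3, with a median log2 difference of 0.74, where 50.9% of all genes tested were higher in replicate 2 and the median was 0.0057. Replicate 2 was the highest library for 5 of the 7, against 15.2% of all genes tested, and replicate 3 the lowest for 5 of the 7, against 19.6%. Endothelial genes were higher in replicate 2 for 5 of 15, pericyte genes for 2 of 5 and smooth muscle genes for 1 of 3, with median log2 differences of -0.12, -0.09 and -0.40. Of lists described below, arterial genes were higher for 7 of 8, venous genes for 3 of 5 and basement membrane genes for 12 of 16. Their medians were 0.28, 0.35 and 0.16. Endothelial transcription factor genes were higher for 9 of 16 (median 0.05) and Wnt and Norrin genes for 7 of 13 (0.02). Vessel signalling genes were higher for 9 of 24 (-0.07), junction and transport genes for 10 of 24 (-0.02) and further mural genes for 9 of 19 (-0.0075). The mean of the fibroblast genes minus that of the endothelial genes was 0.47 in replicate 2 and -0.35 in replicate 3, against -0.01 to 0.06 in the saline libraries.

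A further list of 35 fibroblast and meningeal genes, none of them among the 7, had 30 genes higher in methylphenidate replicate 2 than in replicate 3, with a median log2 difference of 0.44. Their summed level was 1482 CPM in replicate 2 and 1035 CPM in replicate 3, against 1255 to 1484 CPM in the saline libraries. Border-associated macrophages, which live in the meninges and perivascular spaces, had 7 of 8 markers higher in replicate 2, and these summed to 18.1 and 10.1 CPM. In the saline libraries they summed to 12.5 to 19.4 CPM. The arachnoid list, which shares Ptgds and Slc47a1 with the further fibroblast list, had 5 of 7 tested genes higher in replicate 2 and summed to 952 and 697 CPM. In the saline libraries it summed to 799 to 1001 CPM.

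Choroid plexus markers, 12 of 12 detected in every library, were higher in methylphenidate replicate 2 than in replicate 3 for 12 of 12. Their median log2 difference was 1.96. They summed to 541 CPM in replicate 2, 239.8 CPM in replicate 3 and 1050.0 CPM in replicate 1, whose fibroblast mean was -0.07. In the saline lineage they ran from 317 to 1362 CPM while the fibroblast means lay within 0.10 of each other. Astrocyte and oligodendrocyte markers went the other way, with 0 of 10 and 0 of 8 higher in replicate 2, and microglia markers were higher there for 1 of 10. Striatal projection neuron markers were higher in replicate 2 for 0 of 12, with sums of 356 CPM in replicate 2 and 847 CPM in replicate 3. The median log2 difference was -1.26 for the striatal, -0.42 for the oligodendrocyte, -0.28 for the microglia and -0.23 for the astrocyte markers. Cortical excitatory neuron markers were higher in replicate 2 for 7 of 8, with a median of 0.17. Red blood cell genes summed to 134 to 305 CPM in the saline and 145 to 255 CPM in the methylphenidate libraries, highest in replicate 1 of each lineage. The part of any of these cell types in the fibroblast values was not tested.

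**Figure D4:**
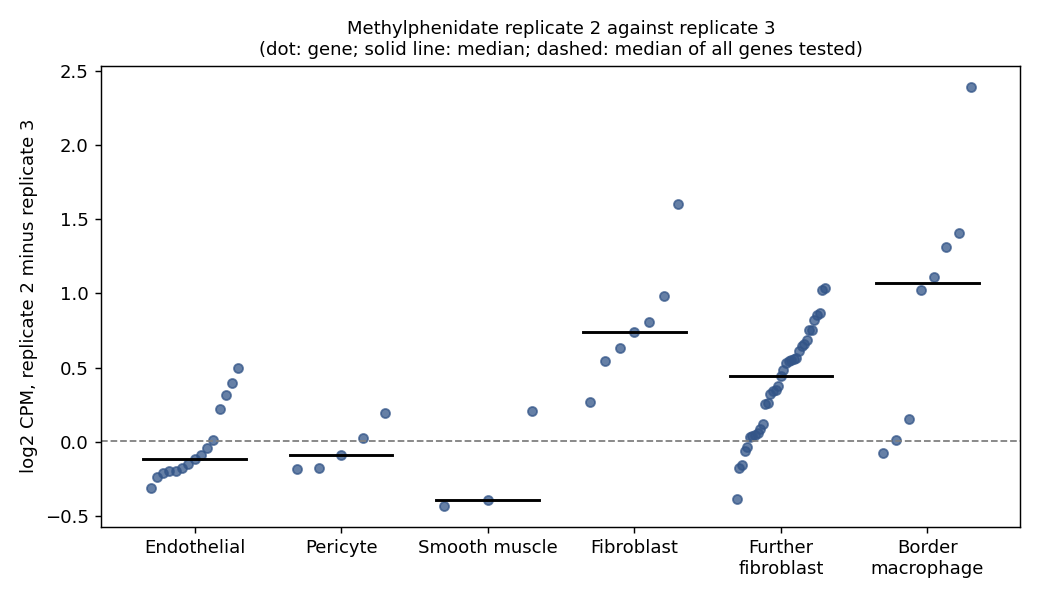
Difference in log2 CPM between methylphenidate replicates 2 and 3 on the vertical axis, with 1 dot per tested gene and the lists along the horizontal axis (solid lines, list medians; dashed line, median of all genes tested). All 7 fibroblast genes lie above 0, with a median of 0.74, while the endothelial, pericyte and smooth muscle medians lie below 0.

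Among 164 other genes of vessels and meninges in 9 lists, 160 were tested and none passed the threshold in edgeR, where 15 had an unadjusted p under 0.05, against 7.51% of all genes tested. Of these, 9 were higher and 6 lower in the methylphenidate lineage, against 4.2% and 3.31% of all genes. The groups did not overlap in 14 higher and 7 lower, against 6.97% and 6.51% of all genes tested. DESeq2 called 3 of them, Nr2f2, Wnt7b and Sparc, all higher in the methylphenidate lineage, where it called 0.824% of all genes, 107 higher and 44 lower. For each list the 2 tested genes of smallest p are given.

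In the list of vessel signalling genes, none of 24 passed, and the median log2 ratio was 0.03. Notch4, an endothelial Notch receptor gene, had a log2 ratio of -0.48 (SE 0.22), and Nrp1, a co-receptor for VEGF-A, one of -0.21 (SE 0.10). Vegfa itself, the ligand of Flt1 and Kdr, lay at 81.3, 93.4 and 98.6 CPM in the saline and at 97.9, 82.4 and 93.6 CPM in the methylphenidate libraries, with the lineages overlapping. Of 16 endothelial transcription factor genes none passed, with a median of 0.03. Nr2f2, which sets venous identity and is also expressed in cortical interneurons, was at 12.8, 8.75 and 8.44 CPM in the saline and at 14.5, 23.5 and 21.7 CPM in the methylphenidate libraries. The groups did not overlap (log2 ratio 0.99, SE 0.21; edgeR adjusted p = 0.226; DESeq2 adjusted p = 0.000856). Klf4, a factor induced by blood flow, had a log2 ratio of -0.70 (SE 0.23; edgeR adjusted p = 0.555).

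Of 13 genes of the Wnt and Norrin pathway that forms and maintains the barrier, none passed in edgeR, and the median was 0.07. By gene, 9 of the 13 were above 0, against 50.3% of all genes tested. An edgeR unadjusted p under 0.05 was found for 3 higher and 0 lower, against 4.2% and 3.31% of all genes. The groups did not overlap in 4 higher and 1 lower, against 6.97% and 6.51%. Wnt7b, a ligand that brain cells supply to endothelium, was at 25.7, 29.2 and 25.4 CPM in the saline and at 33.1, 39.2 and 38.5 CPM in the methylphenidate libraries. Every methylphenidate library was above every saline library (log2 ratio 0.47, SE 0.10; edgeR adjusted p = 0.227; DESeq2 adjusted p = 0.0188). Ctnnb1, beta-catenin, had a log2 ratio of 0.17 (SE 0.07). Fzd4, the Norrin receptor on endothelium, was the 1 gene of the list without overlap in the lower direction (log2 ratio -0.18, SE 0.10). Of 24 junction and transport genes none passed, with a median of 0.01. Ocln, occludin, had a log2 ratio of -0.31 (SE 0.18) and Tjp1, the scaffold ZO-1, one of -0.11 (SE 0.06).

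Basement membrane genes, 16 tested, had a median of 0.06 and none past the threshold in edgeR. By gene, 12 of the 16 were above 0, against 50.3% of all genes tested. An edgeR unadjusted p under 0.05 was found for 3 higher and 0 lower, against 4.2% and 3.31% of all genes. The groups did not overlap in 3 higher and 0 lower, against 6.97% and 6.51%. Sparc, a collagen-binding matricellular protein gene, was at 163.9, 135.6 and 164.2 CPM in the saline and at 203.0, 186.5 and 212.6 CPM in the methylphenidate libraries. The groups did not overlap (log2 ratio 0.38, SE 0.09; edgeR adjusted p = 0.266; DESeq2 adjusted p = 0.0118). Lamc3, a laminin chain gene, had a log2 ratio of 0.46 (SE 0.14). In the 8 arterial genes Mgp, matrix Gla protein, had one of -0.36 (SE 0.14) and Gja4, connexin 37, one of 0.65 (SE 0.26), so that the members of smallest p had opposite signs. In the venous list 5 of 8 were tested, and Vcam1 and Ackr1 had log2 ratios of 0.14 (SE 0.09) and 0.24 (SE 0.16). The leukocyte adhesion genes Selp and Sele reached no more than 2 and 6 counts in a library.

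The further mural list had 19 of 20 genes tested, with a median of -0.11 and none past the threshold. Des, the muscle intermediate filament desmin, had a log2 ratio of -1.15 (SE 0.40; edgeR adjusted p = 0.569) at a mean of 1.61 ± 0.57 CPM in the saline and 0.72 ± 0.16 CPM in the methylphenidate lineage (SD, n = 3 per group). Cspg4, the proteoglycan NG2 of pericytes and of oligodendrocyte precursors, had one of 0.37 (SE 0.14). In the further fibroblast list 24 of 35 genes were below 0, with a median of -0.11, and none passed. Col15a1, a basement membrane collagen, had a log2 ratio of -0.49 (SE 0.20) and Serping1, the C1 inhibitor, one of -0.53 (SE 0.23).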

How the data were processed

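Cerebral cortex of F2 mice was sequenced from poly(A) RNA with a directional kit, per the labels' protocols. Tools listed in the submitters' processing notes, without roles, are HISAT2 2.2.1, StringTie 2.2.1, fastp 0.23.4 and bcl2fastq 2.19, with the build GRCm39. No source used here gives the annotation release or strand setting. The authors deposited raw counts by Ensembl gene, with 1 column per library and no normalization. Between libraries of a group, chi-square over its degrees of freedom was 14.1 to 21.8, so no libraries were merged as duplicates.

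Counts were fitted in R 4.3.3 with edgeR 4.0.16 (filterByExpr, TMM, glmQLFit and glmQLFTest, group as the only term, two-sided, Benjamini-Hochberg). SE is the log2 fold change over the root of F, and 95% intervals use the fit's degrees of freedom. Log2 CPM used a prior count of 2. Alternatives were other scalings and filters, a replicate block, DESeq2 1.42.0, limma-voom (limma 3.58.1), library sizes without mitochondrial genes and leaving out each library. The fit was also run on counts simulated independently for each library, which cannot show the effect of shared sires or litters. Members with an unadjusted p under 0.05 or lineages without overlap, and at least 3 per class, are given by library, and from each other list the 2 genes of smallest p. Kdr, Tek, Tie1, Cdh5, Pecam1, Slc2a1, Vegfa and Fzd4 were added after their values were seen. The members and lists were chosen with earlier results of these data known. Exon lengths are unions of GENCODE M21 exons (GRCm38), and promoters are RefSeq's, GRCm38.p6.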

Additional observations from a re-analysis of the deposited data

How the results depend on the processing

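The count of members past the threshold was 0 under all 15 alternatives, and the smallest adjusted p of any member was 0.163, for Flt1 with DESeq2. Of 450 values of single members under alternatives, 435 lay within 1 SE of the value given, and the other 15 all came from leaving out 1 library. The count of all genes past the threshold, 5, was 10 with total counts, 3 with no filter, 2 with the replicate block and 151 with DESeq2, and it ran from 2 to 26 when 1 library was left out: 3 without saline replicate 2, 8 without saline replicate 3, and 26, 12 and 2 without methylphenidate replicates 1, 2 and 3. The count among other vessel and meningeal genes was 3 with DESeq2 and 0 under the other alternatives. The median log2 fold change lay between -0.22 (without saline replicate 2) and -0.026 (without saline replicate 1) for pericyte, -0.08 and 0.05 for endothelial, -0.35 and -0.03 for smooth muscle and -0.10 and 0.20 for fibroblast genes when 1 library was left out. The cause was not tested. Whether replicate numbers pair the samples is unknown. Deviations of same-numbered libraries from their group means correlated at -0.04, 0.09 and -0.02 over genes, and not every library correlated best with its own number. With 3 libraries per group, such correlations cannot decide whether the libraries were paired. With the replicate block, 3 members, the third being Rgs5, had an unadjusted p under 0.05, as did 1434 of all 18327 genes, and none passed the threshold. Other scalings moved the median of all genes by at most 0.01 on the log2 scale. Smooth muscle genes had 54 to 191 and fibroblast genes 40 to 796 counts per library, and their median within-group SD of log2 CPM was 0.36 and 0.31, against 0.18 for endothelial genes.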
